A study of Mus musculus with 12 samples.

Results

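Ctla4, Icos and Cd28, the genes of 3 related receptors of T cells, were followed with Cd80 and Cd86, which encode the B7 ligands shared by CD28 and CTLA-4, and with Cd83, which encodes a surface protein that stabilises CD86 and MHC class II. The genes were chosen by name as the CTLA-4, ICOS and CD28 costimulation group, with earlier results of these data known. All 6 were among the 24421 gene symbols of the table, and 6 of 6 passed the filter on low counts that left 12461 genes for testing.

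CD28 is the classical costimulatory receptor, and it gives the second signal that a T cell needs beside its antigen receptor. ICOS is a relative of CD28 that binds its own ligand and signals strongly through phosphoinositide 3-kinase. Effector regulatory T cells (Tregs) depend on it for their upkeep. CTLA-4 binds the same ligands as CD28 more tightly, and Tregs use it to strip CD80 and CD86 from antigen-presenting cells; most of it resides inside the cell and cycles to the surface.

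The libraries were bulk total RNA of Tregs from mice whose Il2ra, which encodes the interleukin-2 receptor chain CD25, can be deleted in Tregs by tamoxifen. The 4 groups were knockout (KO) central Tregs (cTreg), wild-type (WT) cTreg, KO effector Tregs (eTreg) and WT eTreg, with 3 libraries each. Every mouse carried R26tomato+/+ and Foxp3eGFPERT2+/+; by its name the tamoxifen-responsive allele sits at the Foxp3 locus, which Tregs express. The CD25 locus was FL/FL or WT/WT; the genotype field gives FL/FL for libraries titled WT and WT/WT for libraries titled KO, and the titles and the cell type field were followed. All groups received 2 mg/kg tamoxifen into the peritoneum for 5 days, and cells were taken 10 days after it. Spleen and lymph nodes of 2 to 3 mice were pooled for each library. Live CD4 cells positive for GFP and tdTomato were sorted as CD62L-high cTreg or CD62L-low eTreg, and KO cells were also gated as CD25-low. The ages of the mice were not used here.

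Total counts ran from 14567313 to 19121577 per library. The targeted Il2ra averaged 116 CPM (counts scaled to library size, here after TMM) in KO cTreg and 560 in WT cTreg, and 124 in KO eTreg and 523 in WT eTreg; the CD25 gate selected for the same difference. All 9 T cell and Treg markers in the table were detected in every group. Rn45s, the ribosomal RNA precursor, took 18.1% to 18.5% of counts in KO cTreg, 22.4% to 24.4% in WT cTreg, 3.19% to 3.32% in KO eTreg and 4.11% to 4.34% in WT eTreg, and its part in the results was not tested beyond a scaling without it. Because the libraries are bulk samples, more or fewer expressing cells cannot be told apart from more or less RNA per cell. Each replicate is a pool of mice, and whether pools shared litters or days is not stated.

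Cd28 (chromosome 1, 60716800 to 60773359), Ctla4 (60887000 to 60915832) and Icos (60977927 to 61000320) lie in a row on the plus strand, in mm10 with GENCODE vM21 gene models. The gap from Cd28 to Ctla4 is 113.64 kb and that from Ctla4 to Icos is 62.095 kb. Cd86 (36603869 to 36666081, minus strand) and Cd80 (38455561 to 38496335, plus strand) both lie on chromosome 16, 1789.5 kb apart. Cd83 lies on chromosome 13 (43784775 to 43803132, plus strand). No other annotated gene shares exon sequence with any of the 6.

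The 300 bases around the annotated start are shown for one receptor and one ligand whose transcripts were both higher in KO cTreg. They come from RefSeq on GRCm38.p6, the assembly of mm10, where 2 of the 6 genes were matched. Both windows are on the plus strand and lie within the longer GENCODE spans of their genes. Capitals mark each match, on either strand, to the 5 motifs searched, which do not overlap one another here: a STAT element, NFAT core letters, an AP-1 motif, a TATA box and the consensus kappaB site.
Ctla4 promoter, chr1:60908775-60909074: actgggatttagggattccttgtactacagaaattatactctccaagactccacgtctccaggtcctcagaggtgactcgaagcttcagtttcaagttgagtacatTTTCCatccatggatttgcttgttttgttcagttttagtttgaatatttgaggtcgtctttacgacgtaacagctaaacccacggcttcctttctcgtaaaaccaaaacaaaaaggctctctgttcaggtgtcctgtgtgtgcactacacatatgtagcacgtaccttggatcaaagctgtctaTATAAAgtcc
Cd80 promoter, chr16:38458683-38458982: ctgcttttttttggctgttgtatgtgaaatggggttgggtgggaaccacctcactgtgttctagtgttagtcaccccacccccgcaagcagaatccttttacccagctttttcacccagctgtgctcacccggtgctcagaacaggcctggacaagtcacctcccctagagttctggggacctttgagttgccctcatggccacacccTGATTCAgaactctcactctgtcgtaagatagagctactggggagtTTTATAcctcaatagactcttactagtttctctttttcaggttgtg

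The STAT element TTCNNNGAA, the palindrome bound by STAT5 downstream of the interleukin-2 receptor, was in neither window and in 8.3% of the 32851 RefSeq promoters of the same length. The core letters of NFAT sites, GGAAA, occurred once in the Ctla4 window, on the minus strand 144 bases before the start, and not in the Cd80 window; 61.3% of promoters held them. The AP-1 motif TGANTCA occurred once in the Cd80 window, 42 bases before the start, and not in the Ctla4 window; 7.81% of promoters held it. TATAAA was in both windows, 40 bases after the start of Ctla4 and, on the minus strand, 4 bases after that of Cd80, and in 13.6% of promoters. The kappaB motif was in neither and in 0.155% of promoters. These matches describe the letters in the windows and nothing further.

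Between KO and WT central Tregs all 6 transcripts changed: Icos, Ctla4, Cd28, Cd80 and Cd83 rose and Cd86 fell. KO cells were also gated as CD25-low, so deletion and gate cannot be told apart in any comparison of KO with WT. By the quasi-likelihood test of edgeR, with p-values adjusted by Benjamini and Hochberg's method, 27.5% of all genes tested changed between KO and WT cTreg, with 14.8% higher and 12.6% lower. These were 1847 higher and 1574 lower; with an offset for gene length and GC content they were 1520 higher and 2198 lower, and all 6 genes kept their direction and call. The libraries of the 2 genotypes did not overlap for any of the 6 genes, as for 40.4% of all genes.

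Icos, which encodes the inducible costimulator, stood at 321, 353 and 344 CPM in the 3 KO cTreg libraries and at 75.9, 117 and 73.5 CPM in the 3 WT cTreg libraries. Every KO cTreg library was above every WT cTreg library, and the KO libraries were close to each other. The log2 fold change was 1.93 ± 0.19 (SE; adjusted p = 6.89e-05), a 3.82-fold difference, and 2.59% of all genes had a larger absolute value. Replicate 2 stood above the others in WT cTreg; without it the log2 fold change was 2.18.

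Cd28, the costimulatory receptor itself, stood at 350.4, 335 and 349 CPM in KO cTreg and at 215, 255 and 211 CPM in WT cTreg. The KO libraries differed from each other by less than the WT libraries did, and the groups stood well apart. This was a log2 fold change of 0.60 ± 0.06 (adjusted p = 3.23e-06), a 1.52-fold difference.

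Ctla4, which encodes the inhibitory receptor, stood at 177, 174 and 163 CPM in KO cTreg and at 141, 154 and 117 CPM in WT cTreg. The lowest KO library lay just above the highest WT library. On the log2 scale the change was 0.32 ± 0.08 (adjusted p = 0.00672), a 1.25-fold difference, and 30.9% of all genes had a larger absolute value. Among the 3 receptors, WT cTreg replicate 2 was the highest WT library each time.

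**Figure D1:**
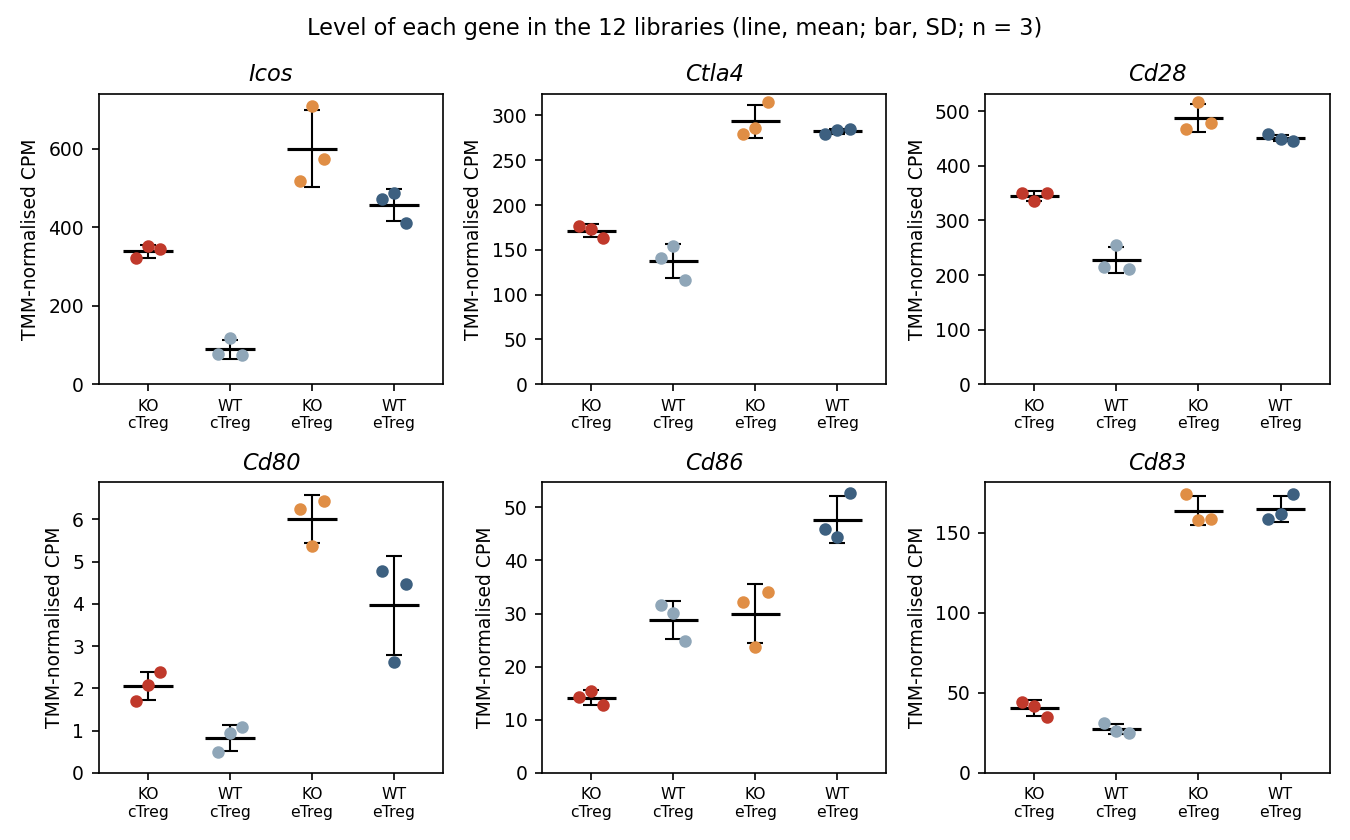
TMM-normalised CPM of each gene (vertical axes, starting at 0) in the 12 libraries, by group; points are libraries, the line is the mean and the bar the SD of 3. Icos in KO cTreg (321 to 353 CPM) lies nearer to WT eTreg (412 to 487) than to WT cTreg (73.5 to 117), and Cd86 is lower in KO than in WT in both subsets.

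The 2 B7 ligands moved in opposite directions. Cd80 was a rare transcript, with 23, 34 and 36 counts in the KO cTreg libraries and 6, 13 and 14 in the WT cTreg libraries. That is 1.70, 2.07 and 2.37 CPM in KO cTreg, against 0.481, 0.937 and 1.08 CPM in WT cTreg. The groups did not overlap, but few reads stand behind them. In log2 units Cd80 rose by 1.29 ± 0.33 (adjusted p = 0.00772).

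Cd86 stood at 14.2, 15.5 and 12.7 CPM in KO cTreg and at 31.5, 30.1 and 24.7 CPM in WT cTreg. All 3 KO libraries were below all 3 WT libraries. The log2 fold change was -1.02 ± 0.14 (adjusted p = 0.000139), which makes the level 2.03-fold lower in KO cTreg. Cd83 stood at 44.4, 42.0 and 35.2 CPM in KO cTreg and at 31.2, 26.1 and 25.1 CPM in WT cTreg, again without overlap. Its log2 fold change was 0.56 ± 0.09 (adjusted p = 0.000349), so Cd83 and Cd86, whose proteins are linked on antigen-presenting cells, moved in opposite directions.

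CD80 and CD86 are best known from antigen-presenting cells, so markers of those cells were set beside them. The 10 B cell markers summed to 9.93 to 12.9 CPM in KO cTreg and 15.6 to 19.6 in WT cTreg, and to 11.8 to 16.1 in KO eTreg and 20.2 to 21.7 in WT eTreg. They moved in the direction of Cd86, and most of the sum came from Cd79b and Bank1; Ms4a1 and Fcer2a, the genes of CD20 and CD23, were at 0 in KO and WT cTreg. Of the 3 B cell markers tested, Cd79b (log2 fold change -0.46, adjusted p = 0.0148) and Bank1 (-1.2, adjusted p = 0.00749) fell in KO cTreg, 2 of 3 where 12.6% of all genes were lower. The cTreg call of Cd79b was lost without KO cTreg replicate 1 or 3 or WT cTreg replicate 1 (adjusted p 0.0532 to 0.0586). In KO eTreg Cd79b fell too (-0.64, adjusted p = 0.00402), 1 of 3 where 3.4% were lower.

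The 12 dendritic cell and antigen presentation markers summed to 32.7 to 42.9 CPM in KO cTreg and 15.1 to 21.7 in WT cTreg, and to 60.5 to 70.1 in KO eTreg and 46.3 to 52.4 in WT eTreg. They moved in the direction of Cd80, and nearly all of the sum was Cd74, the invariant chain, at a mean of 32.1 CPM in KO cTreg and 15.3 in WT cTreg. Of the 7 tested, Cd74 rose in KO cTreg (1.07, adjusted p = 0.000345), 1 of 7 where 14.8% of all genes were higher. Zbtb46, a transcription factor of conventional dendritic cells, rose in KO eTreg (0.88, adjusted p = 0.0385), 1 of 7 where 3.25% were higher. It averaged 4.79 CPM in KO eTreg and 2.61 in WT eTreg, and 0.665 in KO cTreg and 0.331 in WT cTreg. That call was lost without KO eTreg replicate 1 or 3 or WT eTreg replicate 2 or 3 (adjusted p 0.0993 to 0.166), by DESeq2 (0.0774) and in the 6 eTreg libraries alone (0.0594).

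Between WT eTreg and WT cTreg, 3 of the 7 rose, where 35.7% of all genes were higher, as Cd80 also was. Beside Cd74 at 1.46 these were Zbtb46 at 2.94 (adjusted p = 2.4e-06) and Xcr1, a chemokine receptor of cross-presenting dendritic cells, at 4.69 (adjusted p = 1.98e-06). Xcr1 averaged 1.46 CPM in KO eTreg and 2.15 in WT eTreg, and only 0.163 in KO cTreg and 0.0791 in WT cTreg. The other 4 tested did not pass. H2-Ab1 averaged 0.358 CPM in WT eTreg and 0.572 in WT cTreg, H2-Aa 0.808 and 0.515, H2-Eb1 0.887 and 0.796, and Ciita 1.10 and 1.03. Among the markers not tested, Clec9a and Cd209a were at 0 in all 12 libraries. Itgax averaged 0.115 CPM in WT eTreg and 0.0748 in WT cTreg, and Flt3 0.0189 and 0.0267.

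The 7 monocyte and macrophage markers summed to under 10 CPM in every library, and the 6 CD8 and NK cell markers to 22.6 to 27.2 CPM in KO cTreg and 13.8 to 17.1 in WT cTreg, and to 7.68 to 22.0 in KO eTreg and 7.57 to 10.8 in WT eTreg. Of the 3 CD8 and NK cell markers tested, 1 rose in KO cTreg, where 14.8% of all genes were higher. It was Eomes, a factor of cytotoxic lymphocytes (1.87, adjusted p = 0.00545), at means of 13.8 CPM in KO cTreg and 3.77 in WT cTreg. Cd8b1 averaged 9.48 CPM in KO cTreg and 10.9 in WT cTreg, Cd8a 0.201 and 0.387, and Klrb1c 1.21 and 0.131. The top of the KO eTreg range was replicate 2, where Klrb1c, a gene of NK cells, stood at 11.4 CPM against 0.346 and 0.831 in the other KO eTreg libraries. The part of other cells in the levels of Cd80 and Cd86 was not tested.

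Between KO and WT effector Tregs 1 of the 6 genes, Cd86, passed the test and fell, where 6.65% of all genes passed, with 3.25% higher and 3.4% lower. These were 405 higher and 424 lower, or 301 and 546 when libraries were scaled without Rn45s. Cd86 stood at 32.3, 23.6 and 34.0 CPM in KO eTreg and at 45.9, 44.5 and 52.8 CPM in WT eTreg, with no overlap. The log2 fold change was -0.67 ± 0.13 (adjusted p = 0.00606), and 4.86% of all genes had a larger absolute value. Cd86 fell in both subsets, as did Cd79b among the B cell markers. With replicate as a blocking term, since the replicate numbers were taken to pair the eTreg libraries, 14% of all genes passed in the 6 eTreg libraries (1712), and of the 6 genes Cd80 passed beside Cd86.

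Icos stood at 518, 709 and 575 CPM in KO eTreg and at 472, 487 and 412 CPM in WT eTreg. The KO libraries were all higher, but they spread widely, and the log2 fold change of 0.39 ± 0.17 did not pass (adjusted p = 0.253). It passed when WT cTreg replicate 2 was left out (0.39, adjusted p = 0.0446); leaving out each library in turn gave 0.26 to 0.49.

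Cd28 stood at 467, 517 and 479 CPM in KO eTreg and at 458, 449 and 446 CPM in WT eTreg, a log2 fold change of 0.11 ± 0.06 (adjusted p = 0.348) with no overlap. Ctla4 stood at 279.9, 287 and 315 CPM in KO eTreg and at 279, 284 and 284 CPM in WT eTreg. These libraries overlapped, and the log2 fold change was 0.06 ± 0.08 (adjusted p = 0.762). Cd83 stood at 174, 158 and 159 CPM in KO eTreg and at 159, 162 and 174 CPM in WT eTreg, overlapping almost completely, at -0.01 ± 0.08 (adjusted p = 0.962).

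Cd80 stood at 6.23, 5.36 and 6.43 CPM in KO eTreg, from 108, 102 and 116 counts, and at 4.78, 2.63 and 4.47 CPM in WT eTreg, from 79, 57 and 79 counts. The KO libraries lay above the WT libraries, and WT replicate 2 was the low one. The log2 fold change of 0.61 ± 0.23 did not pass (adjusted p = 0.131), and without WT eTreg replicate 2 it was 0.38. With that block it was 0.62 and passed (adjusted p = 0.0213). In eTreg, 4 of the 6 genes (Icos, Cd28, Cd80 and Cd86) did not overlap between genotypes, as did 25.2% of all genes.

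**Figure D2:**
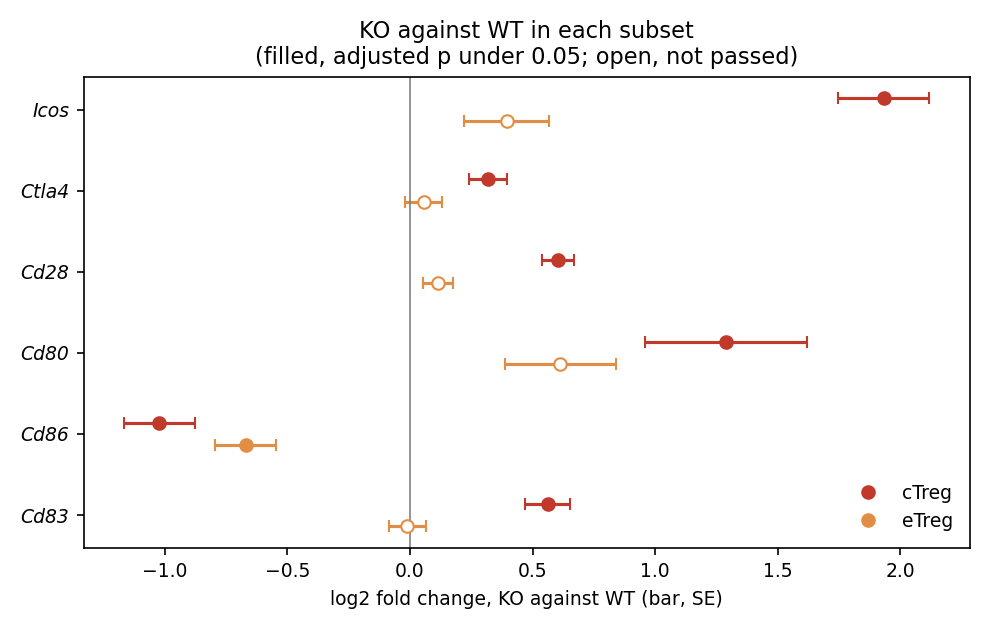
log2 fold change of KO against WT (horizontal axis) of the 6 genes in cTreg (red) and eTreg (orange); bars are SE, and filled points passed the adjusted p threshold of 0.05. All 6 points are filled in cTreg, and Cd86 at -0.67 is the filled point in eTreg. The eTreg values are from the fit without the replicate block, with which Cd80 passed too.

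Whether KO and WT differed by unlike amounts in the 2 subsets was tested by the interaction, the log2 fold change in eTreg minus that in cTreg. It was below 0 and passed for 3 of the 6 genes, while 3.8% of all genes passed, 0.803% above 0 and 3% below it. Over all genes 100 were above 0 and 374 below it, or 283 and 343 with the length and GC offset. The difference was -1.54 ± 0.25 for Icos (adjusted p = 0.0102), -0.49 ± 0.09 for Cd28 (adjusted p = 0.00351) and -0.57 ± 0.12 for Cd83 (adjusted p = 0.0125). All 3 rose in KO against WT cTreg and differed less between genotypes in eTreg. For Cd83 the call was lost without KO cTreg replicate 2 (-0.54, adjusted p = 0.0509).

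No difference between subsets passed for Ctla4 (-0.26 ± 0.11, adjusted p = 0.227), Cd80 (-0.68 ± 0.40, adjusted p = 0.433) or Cd86 (0.35 ± 0.19, adjusted p = 0.392). For Ctla4 it passed without WT cTreg replicate 2 (-0.36, adjusted p = 0.0492). The value of Cd80 ran from -0.92 to -0.42 as each library was left out.

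All 6 transcripts were higher in WT eTreg than in WT cTreg. Between them 71.5% of all genes tested changed, 35.7% higher and 35.8% lower, so a call is common in this comparison. These were 4449 higher and 4465 lower, or 2708 and 5122 with the length and GC offset. The libraries of the 2 groups did not overlap for any of the 6 genes, as for 74.9% of all genes. Cd83 rose by 2.59 ± 0.09 (log2, adjusted p = 2.23e-12), a 6.01-fold difference, and Icos by 2.36 ± 0.19 (adjusted p = 2.21e-06), a 5.14-fold difference. Cd80 rose by 2.22 ± 0.30 (adjusted p = 4.87e-06), Ctla4 by 1.04 ± 0.08 (adjusted p = 9.25e-09) and Cd28 by 0.99 ± 0.06 (adjusted p = 6.35e-10). Cd86 rose by 0.73 ± 0.13 (adjusted p = 0.000179). That offset moved the median of all genes to -0.14 and left Cd86 at 0.20, no longer past the threshold (adjusted p = 0.147), Ctla4 at 0.50 and Cd28 at 0.37.

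Between KO eTreg and KO cTreg the 6 genes were again all higher in eTreg, except that Cd28 was at -0.11 under the length and GC offset. Of all genes tested 72% changed, 36.1% higher and 35.8% lower (4503 and 4465, or 2990 and 4340 with that offset), and 74.6% had groups without overlap, as all 6 genes did. The log2 differences were smaller than in WT for 5 genes, at 2.02 ± 0.08 for Cd83, 1.54 ± 0.25 for Cd80, 0.82 ± 0.17 for Icos (adjusted p = 0.00205), 0.78 ± 0.08 for Ctla4 and 0.50 ± 0.06 for Cd28. Cd86 differed by 1.08 ± 0.14. The test of whether the 2 subset differences differ is the interaction above. With the length and GC offset Icos was at 0.33 (adjusted p = 0.131) and Cd28 missed the threshold too (adjusted p = 0.105).

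The KO effect in cTreg and the subset difference in WT share the WT cTreg libraries, so the 2 log2 fold changes are given side by side only, the KO effect before the subset difference. Icos was at 1.93 and 2.36, Cd80 1.29 and 2.22, Cd28 0.60 and 0.99, Cd83 0.56 and 2.59, and Ctla4 0.32 and 1.04. Cd86 was -1.02 and 0.73, the one gene with opposite signs.

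A direct comparison of KO cTreg with WT eTreg shares no library between its sides. In it 70.2% of all genes tested changed, 35.2% higher and 35.1% lower. These were 4382 higher and 4371 lower, or 4397 and 2860 with the length and GC offset. Of the 6 genes 5 were lower in KO cTreg, and none of the 6 overlapped between the groups, as for 74.1% of all genes, although Cd28 turned to 0.20 under that offset. The log2 fold change was -2.03 ± 0.08 for Cd83, -1.75 ± 0.14 for Cd86, -0.93 ± 0.26 for Cd80, -0.72 ± 0.08 for Ctla4 and -0.39 ± 0.06 for Cd28. Icos, at 321 to 353 CPM in KO cTreg and 412 to 487 in WT eTreg, did not overlap but missed the threshold (-0.43 ± 0.17, adjusted p = 0.0511). It passed without WT cTreg replicate 2, WT cTreg replicate 3 or KO eTreg replicate 2 (adjusted p 0.00336 to 0.0436). It also passed with DESeq2 size factors, the DESeq2 Wald test, the stricter filter, the replicate block, limma-voom, the 6 libraries alone and scaling without Rn45s. Under the length and GC offset it was 0.05 (adjusted p = 0.817). Cd80 was then at -0.42 (adjusted p = 0.174).

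Over the 4 groups, Icos, Ctla4, Cd28 and Cd80 shared one order of mean level, with KO eTreg highest, then WT eTreg, KO cTreg and WT cTreg. Icos averaged 339 ± 16.6 CPM in KO cTreg and 88.8 ± 24.4 in WT cTreg, and 601 ± 98.1 in KO eTreg and 457 ± 40.1 in WT eTreg (SD, n = 3 each). Neighbouring groups in this order overlapped only for Ctla4, between KO and WT eTreg. Cd86 had its own order, highest in WT eTreg and lowest in KO cTreg. It averaged 14.1 ± 1.38 CPM in KO cTreg and 28.8 ± 3.57 in WT cTreg, and 30.0 ± 5.56 in KO eTreg and 47.7 ± 4.45 in WT eTreg, and KO eTreg overlapped WT cTreg. Cd83 averaged 164 ± 9.12 CPM in KO eTreg and 165 ± 8.09 in WT eTreg, which overlapped, and 40.5 ± 4.79 in KO cTreg and 27.5 ± 3.26 in WT cTreg.

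Per kilobase of exon, which allows levels of different genes to be compared, the order of the receptors depended on the group. In KO cTreg Icos led at a mean of 99.0 CPM per kb, above Ctla4 at 73.5 and Cd28 at 56.3. In WT cTreg Ctla4 led at 58.9 CPM per kb, above Cd28 at 37.1 and Icos at 25.9. In KO eTreg Icos stood at 175, Ctla4 at 126 and Cd28 at 79.7 CPM per kb, and in WT eTreg at 133, 121 and 73.6. The order of Icos and Ctla4 in WT eTreg varied by library, with Ctla4 to Icos ratios per kb of 0.871, 0.858 and 1.02. The ligands were far lower, with Cd80 between 0.225 and 1.62 CPM per kb and Cd86 between 3.86 and 13.0 over the 4 group means. Lengths are those of the GENCODE models, since the annotation behind the counts is not given in the sources used here.

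Ratios of 2 genes within a library do not depend on how libraries are scaled. The Icos to Cd28 count ratio was 0.916, 1.05 and 0.986 in KO cTreg and 0.353, 0.459 and 0.348 in WT cTreg. In KO eTreg it was 1.11, 1.37 and 1.20, and in WT eTreg it was 1.03, 1.09 and 0.923. The KO libraries were higher without overlap in both subsets, by 2.56-fold in cTreg and 1.21-fold in eTreg, and KO cTreg overlapped WT eTreg.

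The Ctla4 to Cd28 ratio, which sets the inhibitory against the activating receptor of the same ligands, was 0.504, 0.519 and 0.467 in KO cTreg and 0.654, 0.606 and 0.553 in WT cTreg. It was lower in every KO cTreg library than in any WT cTreg library, at a log2 difference of -0.28. In KO eTreg it was 0.599, 0.555 and 0.657 and in WT eTreg 0.611, 0.633 and 0.638, which overlapped. The Ctla4 to Icos ratio differed by -1.64 (log2) in cTreg and -0.33 in eTreg, with no overlap in either.

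The Cd80 to Cd86 ratio was 0.120, 0.134 and 0.187 in KO cTreg and 0.0153, 0.0312 and 0.0435 in WT cTreg, a 5.25-fold difference. It was 0.193, 0.227 and 0.189 in KO eTreg and 0.104, 0.0591 and 0.0847 in WT eTreg, a 2.51-fold difference. The KO libraries lay above the WT libraries in both subsets, and Cd86 was the more abundant transcript of the pair in every library. In all, 20 ratio comparisons were made, 4 ratios in 5 pairs of groups. Each that did not overlap had an exact two-sided permutation p of 0.1 (0.125 adjusted over the 20), the smallest that 3 against 3 libraries can give, so none could pass 0.05.

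**Figure D3:**
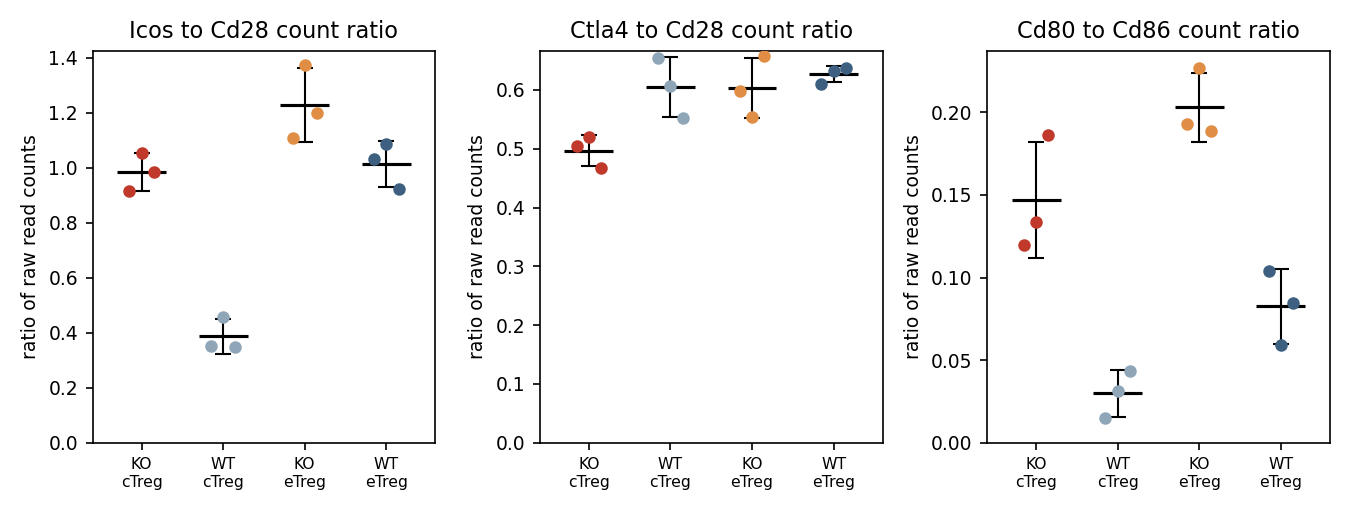
Ratio of raw read counts of 2 genes in each library (vertical axes, starting at 0), by group; points are libraries, the line is the mean and the bar the SD of 3. The Icos to Cd28 ratio is 0.916 to 1.05 in KO cTreg and 0.348 to 0.459 in WT cTreg, and the Cd80 to Cd86 ratio is higher in KO than in WT in both subsets.

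The receptor cluster was set beside its neighbours, the 11 other protein-coding genes tested within 1 Mb. In cTreg 4 of these rose and 2 fell, where 14.8% of all genes were higher and 12.6% lower. Raph1, the gene of the actin regulator lamellipodin and the nearest tested, 149.696 kb before Cd28, rose by 1.03 ± 0.15 (log2, adjusted p = 0.000262). Abi2, a subunit of the WAVE actin complex 235.642 kb before, rose by 0.55 ± 0.08 (adjusted p = 5.6e-05). Ica1l rose by 2.44 ± 0.38 (adjusted p = 0.000141) from low levels, with means of 2.53 CPM in KO cTreg and 0.451 in WT cTreg. Fam117b rose by 0.28 (adjusted p = 0.000639).

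Nop58, which encodes a core protein of small nucleolar ribonucleoproteins, changed by -0.47 (adjusted p = 6.65e-05). Pard3b, 638.504 kb after Icos, changed by -1.18 ± 0.41 at under 2 CPM (adjusted p = 0.0423), and its call was lost without KO cTreg replicate 1, 2 or 3, WT cTreg replicate 2 or 3, or WT eTreg replicate 1 or 3 (adjusted p 0.0505 to 0.198), by DESeq2 (0.0708) and by limma-voom (0.0822). In eTreg 2 of the 11 rose, where 3.25% of all genes were higher: Fam117b by 0.31 (adjusted p = 0.00131) and Ica1l by 1.04 (adjusted p = 0.0242). The call of Ica1l was lost without KO eTreg replicate 1 or 2 or WT eTreg replicate 2 or 3 (adjusted p 0.0558 to 0.117). Icos rose more in cTreg than Cd28 and Ctla4, and of the neighbours only Ica1l had a larger log2 fold change.

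**Figure D4:**
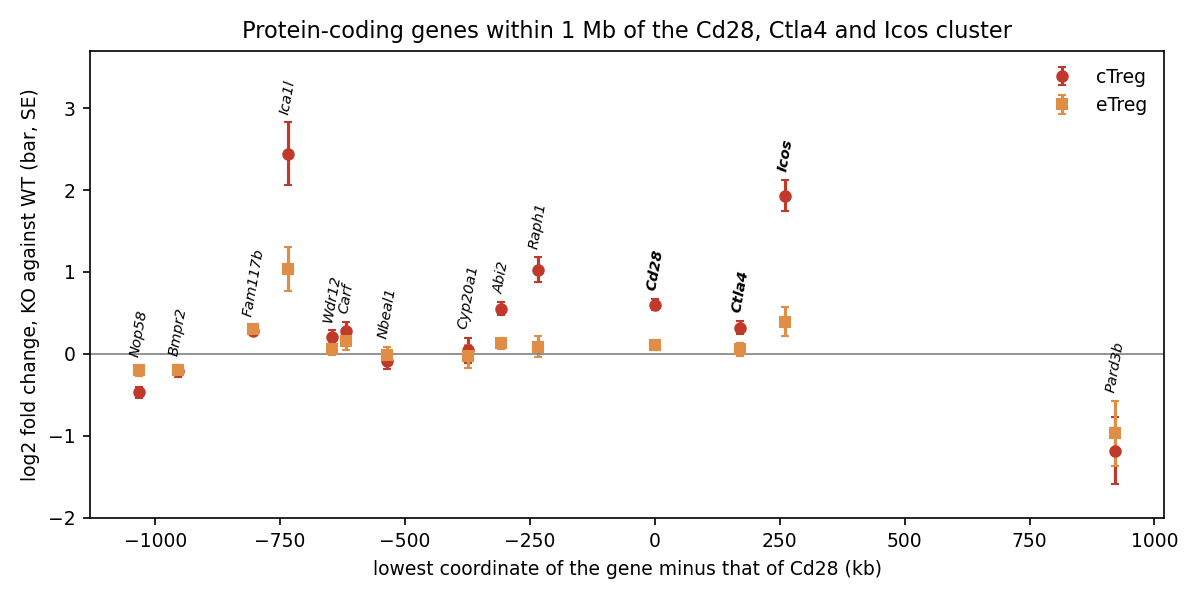
log2 fold change of KO against WT (vertical axis; bars, SE) in cTreg (red circles) and eTreg (orange squares) of the protein-coding genes tested within 1 Mb of the cluster, by distance from Cd28 in kb. Raph1, Cd28, Ctla4 and Icos are all above 0 in cTreg, and Bmpr2, Wdr12, Carf, Nbeal1 and Cyp20a1 did not pass the test in either subset.

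A list of 10 further genes held the rest of the CD28 and B7 family and Tnfrsf14, a TNF receptor gene whose product, HVEM, binds BTLA; 8 were in the table and 6 were tested, and Cd276 and Vtcn1 had 0 counts. In KO against WT cTreg 3 of 6 rose, Tnfrsf14 among them, and 0 fell, where 14.8% of all genes were higher, with a median log2 fold change of 0.28 beside 0.0014 over all genes. Pdcd1, the gene of the inhibitory receptor PD-1, rose by 1.31 ± 0.14 (adjusted p = 3.83e-05), at means of 71.0 CPM in KO cTreg and 28.6 in WT cTreg. Btla, an inhibitory receptor, rose by 0.44 ± 0.09 (adjusted p = 0.00372). Tnfrsf14 rose by 0.19 ± 0.06 (adjusted p = 0.0292), but not without KO cTreg replicate 1 or WT cTreg replicate 1 or 3 (adjusted p 0.0899 to 0.142). It was at 0.11 under the length and GC offset (adjusted p = 0.308) and missed the threshold in the 6 cTreg libraries alone (0.0587).

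The ligands of the family did not pass in cTreg. Icosl, the ligand of ICOS, was at 0.28 ± 0.22 (adjusted p = 0.386), at means of 14.4 CPM in KO cTreg and 11.8 in WT cTreg. Cd274, the gene of PD-L1, was at 0.28 ± 0.10 (adjusted p = 0.0606), and passed without KO cTreg replicate 2 or WT cTreg replicate 1 (adjusted p = 0.0396 and 0.0308), by DESeq2 (0.0285) and with the block over 12 libraries (0.024). Pdcd1lg2, the gene of PD-L2, was at -0.25 ± 0.12 (adjusted p = 0.129).

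In eTreg 2 of 6 rose and 0 fell, where 3.25% of all genes were higher, with a median of 0.20 beside 0.007 over all genes. Tnfrsf14 rose by 0.36 ± 0.06 (adjusted p = 0.00239) and Pdcd1 by 0.48 ± 0.12 (adjusted p = 0.0349), at means of 191 CPM in KO eTreg and 138 in WT eTreg. The call of Pdcd1 was lost without KO cTreg replicate 1, KO eTreg replicate 1, 2 or 3, or WT eTreg replicate 2 or 3 (adjusted p 0.0553 to 0.0996), and with no filter (0.0786). Btla was at 0.21 (adjusted p = 0.209; with the replicate block in eTreg, 0.00199), Cd274 at 0.19 (0.324), Pdcd1lg2 at -0.06 (0.791) and Icosl at -0.02 (0.981). Between WT eTreg and WT cTreg 4 of the 6 rose and 1 fell, where 71.5% of all genes changed, led by Pdcd1 at 2.26 and Pdcd1lg2 at 1.64, and Tnfrsf14 changed by -0.58.

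Of 20 genes that carry the CD28 and ICOS signal, 19 were tested; in cTreg 6 rose and 4 fell, where 14.8% of all genes were higher and 12.6% lower, with a median of 0.07. Malt1, a protease of antigen receptor signalling, rose by 0.56 ± 0.06 in cTreg (adjusted p = 4.23e-06) and by 0.66 ± 0.06 in eTreg (adjusted p = 2.93e-06). The adaptors Grb2 (0.28, adjusted p = 0.00197) and Lcp2 (0.25, adjusted p = 0.000481) also rose in cTreg. Pik3r1, the regulatory subunit p85 of phosphoinositide 3-kinase, changed by -0.38 ± 0.07 in cTreg (adjusted p = 0.00102), the adaptor Grap2 by -0.26 (adjusted p = 0.000973) and the catalytic subunit Pik3cd by -0.25 (adjusted p = 0.000371).

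In eTreg 3 of these 19 rose and 2 fell, where 3.25% of all genes were higher and 3.4% lower, again with a median of 0.07. Beside Malt1, the kinase genes Fyn (0.26, adjusted p = 0.00366) and Pik3ca (0.25, adjusted p = 0.00433) rose. Grap2 changed by -0.27 (adjusted p = 0.00366) and Pik3r1 by -0.27 (adjusted p = 0.0336). The call of Pik3r1 was lost without KO cTreg replicate 3, KO eTreg replicate 1 or 2, or WT eTreg replicate 1 or 3 (adjusted p 0.0509 to 0.151).

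Of 16 genes of CTLA-4 trafficking and of its partners, 8 rose and 1 fell in cTreg, where 14.8% of all genes were higher and 12.6% lower, with a median of 0.16. Ptpn11, the phosphatase SHP-2, rose by 0.62 ± 0.06 (adjusted p = 1.01e-06). Lrba, which protects CTLA-4 from lysosomal decay, rose by 0.48 ± 0.05 (adjusted p = 5.62e-06), and Lax1, a partner in moving CTLA-4 to the surface, by 0.45 ± 0.07 (adjusted p = 8.69e-05). Ap1m1, of the AP-1 clathrin adaptor that carries CTLA-4 to lysosomes, changed by -0.24 (adjusted p = 0.0106), which was lost without KO cTreg replicate 1 or WT cTreg replicate 3 (adjusted p = 0.0506 and 0.0598).

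In eTreg 4 of the 16 rose and 0 fell, where 3.25% of all genes were higher, with a median of -0.02. Ptpn11 rose by 0.35 (adjusted p = 0.00108), Lax1 by 0.29 (adjusted p = 0.00952) and Lrba by 0.20 (adjusted p = 0.0259). Lax1 was lost without WT eTreg replicate 2 (adjusted p = 0.0529), and Lrba without KO eTreg replicate 1, 2 or 3 or WT eTreg replicate 1 or 3 (adjusted p 0.0585 to 0.104) or when scaled without Rn45s (0.0741).

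The 4 genes of RNA-binding proteins known to restrain Icos or Ctla4 messages, or related to those, were Rc3h1 and Rc3h2 (Roquin-1 and Roquin-2), Zc3h12a (Regnase-1) and Zc3h12d. Zc3h12d rose by 0.43 ± 0.06 in cTreg (adjusted p = 3.87e-05) and by 0.20 ± 0.06 in eTreg (adjusted p = 0.0445). The eTreg call was lost without KO cTreg replicate 2 or 3 or any single eTreg library (adjusted p 0.0577 to 0.149), and when scaled without Rn45s (0.108). Rc3h1 was at 0.12 in both subsets (adjusted p = 0.196 and 0.324), Rc3h2 at 0.12 and 0.15 (0.0965 and 0.0818) and Zc3h12a at -0.14 and -0.05 (0.215 and 0.789). In cTreg, Rc3h2 and Zc3h12a passed without WT cTreg replicate 2 (adjusted p = 0.0476 and 0.0113), and Rc3h2 passed in eTreg with the replicate block (adjusted p = 0.0168).

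Of 13 transcription factors listed by name for the 3 receptor loci, 7 rose and 1 fell in cTreg, with a median of 0.16. Of all genes 14.8% were higher and 12.6% lower. Whether these factors act at the loci was not tested. Maf rose by 1.98 ± 0.16 (adjusted p = 1.39e-05), Prdm1 by 1.85 ± 0.13 (adjusted p = 6.34e-07) and Batf by 1.23 ± 0.08 (adjusted p = 3.67e-08); all 3 are factors of effector T cells. Irf4 at 0.84 and Nfatc1 at 0.70 also rose. Foxp3, the lineage factor of Tregs, fell by 0.79 ± 0.06 on the log2 scale in cTreg (adjusted p = 1.47e-07) and by 0.48 ± 0.06 in eTreg (adjusted p = 0.000205). In eTreg 3 rose and 1, Foxp3, fell, where 3.25% of all genes were higher and 3.4% lower. These were Prdm1 by 0.65 (adjusted p = 0.00287), Batf by 0.60 (adjusted p = 0.000185) and Stat3 by 0.29 (adjusted p = 0.00434), and the median was 0.10. Maf was at 0.28 in eTreg (adjusted p = 0.324), and the difference between subsets passed for it (-1.70, adjusted p = 0.00209).

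**Figure D5:**
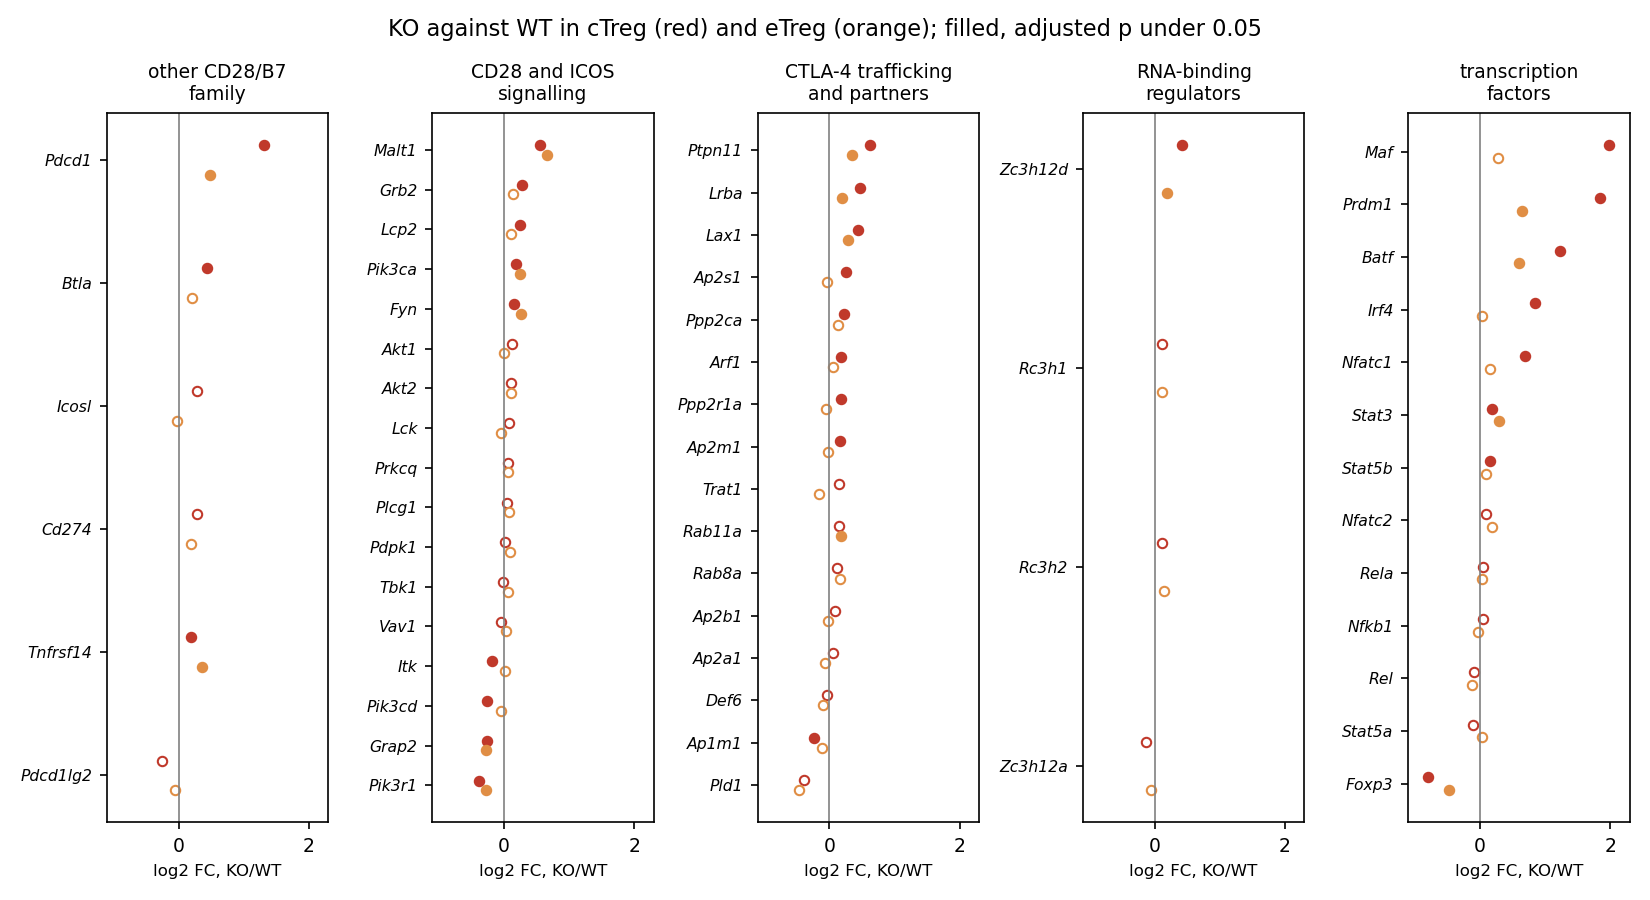
log2 fold change of KO against WT (horizontal axes) of genes in 5 lists, not all of them shown, in cTreg (red) and eTreg (orange); filled points passed the adjusted p threshold of 0.05. Pdcd1, Maf, Prdm1 and Batf lie farthest to the right in cTreg, and Foxp3 is below 0 in both subsets.

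For each gene the others with the most similar pattern were taken by Pearson's r of log2 CPM over the 12 libraries, which fall into 4 groups, so r mostly reflects the group means and carries no test. Among about 8606 genes compared, Cd28 was most like Maf (r = 0.996), Ccng1 (0.995) and Slc22a15 (0.994). Among the 3 genes most like Icos were Cass4 (0.993) and Atp2b4 (0.993), and Ctla4 was most like Myo1h (0.993), Ccdc50 (0.991) and Ttn (0.990). Cd83 was most like Nbn (0.996), Twsg1 (0.996) and Tbc1d4 (0.995). Cd80 was most like Fryl (0.979), Nck1 (0.977) and Sec14l1 (0.977).

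Cd86 was most like Rragd (0.979), which encodes a Rag GTPase of amino acid sensing, then Fnip1 (0.969) and Ash2l (0.969). Rragd averaged 8.55 CPM in KO cTreg and 19.7 in WT cTreg, and 18.8 in KO eTreg and 38.7 in WT eTreg. By Spearman's rho only Cass4, Fnip1 and Nbn stayed among the top 3 of their gene. Among the 6 genes themselves r was 0.979 between Icos and Cd28 and 0.978 between Ctla4 and Cd83, but 0.0994 between Cd86 and Icos and 0.279 between Cd86 and Cd28.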

How the data were processed

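Read counts per gene symbol, deposited by the authors as 1 table of whole numbers whose columns are the 12 libraries, were used as they stand. The labels' protocols name Qiagen RNeasy for extraction and KAPA RNA HyperPrep with RiboErase, which removes ribosomal RNA, for the libraries. HISAT2 2.2.1, Cell Ranger and mm10 appear in the submitters' processing notes with no roles. How reads were counted, with which annotation and strand setting, is not given in the sources used here. Month-like symbols (27) stay in totals but are never named.

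The analysis used edgeR 4.0.16 in R 4.3.3: filterByExpr, TMM, robust dispersions over all 12 libraries in 4 groups (common coefficient of variation 0.0768) and two-sided quasi-likelihood F-tests of 6 contrasts, with Benjamini-Hochberg adjustment over 12461 genes. A gene was called, and written as rising, falling or changing, at an adjusted p under 0.05. SE is the absolute log2 fold change over the root of F, and CPM carry the TMM factors. Coordinates and exon lengths come from GENCODE vM21, where 23303 of 24421 symbols matched 1 gene. The alternatives tried were the size factors and then the whole Wald test of DESeq2 1.42.0, voom in limma 3.58.1, no filter, a stricter filter (3 or more libraries at 1 CPM or above), the replicate block, the 6 libraries of a contrast alone, and leaving out each library. Scaling without Rn45s, the length and GC offset and the block in the 6 eTreg libraries were added after seeing the data. The steps were tested on simulated counts with 100 genes changed 1.5-fold and 100 changed 2-fold between KO and WT. In cTreg 61 and 77 of these were recovered and 6.76% of calls were false. In eTreg 71 and 72 were recovered and 6.54% of calls were false. The counts were drawn with the dispersions fitted to the data, and unchanged genes had the same mean in all 4 groups. No batch or pairing was simulated, and fewer genes were changed than were called in the data, so these shares hold for that setting.

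Correlations between deviations of same-numbered libraries from their group means were 0.257, 0.341 and 0.166 for KO and WT eTreg, so the replicate numbers were taken to pair these libraries, although a shared litter or day is not named in the labels. For cTreg they were -0.105, 0.0047 and 0.0622. Between eTreg and cTreg they were 0.229, 0.0386 and -0.0746 in KO and -0.0532, -0.175 and 0.0222 in WT. Differently numbered libraries ran from -0.3145 to 0.0707 for KO and WT eTreg. Elsewhere they reached 0.223, for WT eTreg replicate 1 with WT cTreg replicate 2, which is above the 0.166 found in eTreg. The pairing in eTreg thus rests on the same counts that were then tested. No 2 libraries of a group agreed within counting error (the chi-squared statistic over its degrees of freedom was 3.75 to 10.5).

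The 6 genes and all gene lists were chosen with earlier results of these data known. Named were the 6 genes, every tested gene of the other family and the RNA-binding regulators, up to 3 called rises and 3 called falls of each further list, and the 3 genes most alike, at a mean log2 CPM of 3 or more. The neighbours of the cluster, the marker genes and, where 5 factors passed the interaction, all 5 were named after their values were seen. A few genes that these rules name are not reported here.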

Additional observations from a re-analysis of the deposited data

Results flagged for a closer look

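The KO effect differed between eTreg and cTreg, by edgeR's quasi-likelihood test of the interaction with Benjamini-Hochberg adjustment, for 3 of the 6 genes and for 7 of the 58 genes tested in the 5 pathway lists, where 3.8% of all genes passed and 3% were below 0. Values are the log2 fold change of KO against WT in eTreg minus that in cTreg, and all were below 0. They were -1.54 for Icos (adjusted p = 0.0102), -0.49 for Cd28 (adjusted p = 0.00351) and -0.57 for Cd83 (adjusted p = 0.0125). Icos, Cd28 and Cd83 were higher in all 3 KO than in all 3 WT libraries of cTreg.

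Among the lists the difference was -1.70 for Maf (adjusted p = 0.00209), -1.20 for Prdm1 (0.00153), -0.83 for Pdcd1 (0.0273), -0.82 for Irf4 (0.000863), -0.63 for Batf (0.00323), -0.54 for Nfatc1 (0.000415) and -0.28 for Lrba (0.0477). The call of Pdcd1 was lost without KO cTreg replicate 1 or 2, WT cTreg replicate 3, KO eTreg replicate 1, 2 or 3, or WT eTreg replicate 3 (adjusted p 0.0523 to 0.074), and with no filter (0.0584). That of Lrba was lost without KO cTreg replicate 1 or 3, WT cTreg replicate 1 or 3, KO eTreg replicate 1 or 3, or any WT eTreg replicate (adjusted p 0.0663 to 0.123), and with DESeq2 size factors, the replicate block and limma-voom (0.0532 to 0.0557).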

How the results depend on the processing

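Over the 6 genes and 6 contrasts, the alternatives other than leaving out a library kept direction and side of the threshold in 309 cases, gained a call in 8, lost one in 3 and turned the direction in 4. In cTreg the KO effect of all 6 genes kept its direction and call under every alternative run, and so did Cd86 in eTreg. With the replicate block in the 6 eTreg libraries 1712 genes were called in place of 829, with 813 shared, and Cd80 was gained at 0.62; the block over 12 libraries gave 3410 in cTreg, 857 in eTreg and 558 in the interaction, and of the calls on the 6 genes it changed Icos in KO cTreg against WT eTreg. The length and GC offset gave 0.0103 for Cd83 in eTreg, 0.20 for Cd86 in the WT subset difference, and 0.33 for Icos and -0.11 for Cd28 in the KO one. In KO cTreg against WT eTreg it gave 0.052 for Icos, 0.20 for Cd28 and -0.42 for Cd80. There Icos passed at -0.45 with DESeq2 size factors and the Wald test, -0.44 with the stricter filter, -0.43 with the block, limma-voom and the 6 libraries alone, and -0.51 without Rn45s. The causes were not tested.

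As each library was left out, calls ran from 2534 to 3490 in cTreg, 455 to 890 in eTreg, 314 to 570 in the interaction, and 8209 to 8848 in KO cTreg against WT eTreg. In eTreg they were 455 without WT replicate 2, 497 without WT replicate 3 and 462 without KO replicate 3. In the interaction they were 314 without KO cTreg replicate 2. Icos ran from 0.26 to 0.49 and Cd83 from -0.0574 to 0.0294 in eTreg; the interaction from -0.36 to -0.16 for Ctla4 and -0.67 to -0.50 for Cd83; Icos in KO cTreg against WT eTreg from -0.50 to -0.38; and the log2 Ctla4 to Cd28 ratio in eTreg from -0.12 to 8e-04. Icosl in eTreg turned to 0.0282 with limma-voom and 0.0047 with the offset, and ran from -0.199 to 0.162 as each library was left out. Over the other genes tested, 1662 of their settings kept direction and call, 89 lost the call, 9 gained it and 5 turned the direction, all 5 of Icosl in eTreg. Cd80, at 6 to 36 counts per cTreg library, had the fewest reads of the 6 genes.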
